A study of Orbilia oligospora with 9 samples.

Results

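The wild-type (WT) mycelium of Orbilia oligospora, also named Arthrobotrys oligospora, was profiled in 3 RNA-seq libraries of the 9 in the series. The members were chosen by their genotype label, and every one of the 12901 loci in the expression table was ranked by its mean over these 3 libraries. All 3 came from strain ATCC 24927, genotype WT, grown at 28 °C for 5 days on agar with tryptone, yeast extract and glucose (TYGA). The labels describe the cells as fungal hyphae and the condition as differentiation of aerial hyphae, and they name no nematode and no added agent. No library of the 2 mutant strains was used. The design text speaks of biological replicates without telling if separate plates were used, and the spread between libraries may hold both culture and technical differences.

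O. oligospora lives on decaying matter as branching, septate hyphae and turns to predation when nematodes are near, when it builds adhesive networks as traps. Hyphae grow at their tips, where chitin and beta-1,3-glucan are laid down, and their septal pores can be plugged by Woronin bodies, dense protein bodies found in this group of filamentous fungi. Aerial hyphae carry a coat of hydrophobins, and conidiophores bear the asexual spores.

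Abundance was given as FPKM, fragments scaled to locus length and to library size, so that levels of different loci are compared per length. Of the 12901 loci, 11144 carried a locus tag of the form AOL_s and 1757 did not. A Swiss-Prot or Pfam match, which supplied the functions named here, was given for 7943 loci (61.6%). A library held an estimated 17100000 to 19100000 fragments, and at the median span of 1362 bp 1 FPKM then stood for 23.3 to 26.01 fragments. Library 3 stood apart. Across all loci, log2(FPKM + 1) correlated at 0.986 between libraries 1 and 2, but at 0.928 between libraries 1 and 3 and at 0.934 between libraries 2 and 3. Means over the 3 libraries are therefore given with the value of each library.

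The wild-type transcriptome was steep. A single locus took 6.95%, 7.10% and 6.92% of the summed FPKM in libraries 1, 2 and 3. The 10 most abundant loci of each library took 22.4%, 23.0% and 20.6%, and its 1000 most abundant took 78.5%, 80.3% and 78.2%. By the mean of the 3 libraries, 139 loci together held 50% of the summed FPKM, 9 loci reached a mean of 10000 FPKM, 168 reached 1000, 1478 reached 100 and 10023 reached 1. The median locus had a mean of 9.80 FPKM.

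The loci at the very top were mostly short and without a Swiss-Prot or Pfam match. The first, AOL_s00176g78, had 78962, 80052 and 82690.1 FPKM in libraries 1, 2 and 3 (80568 ± 1917, SD, n = 3), and spans 725 bp of scaffold NW_011645733.1 (bases 252992 to 253716, minus strand). Neither Swiss-Prot nor Pfam gave a match for it. Its 3 values lay within 5% of each other, since the highest was 1.05 times the lowest. The second, AOL_s00076g689, had 33747, 32087 and 26908 FPKM and spans 882 bp of scaffold NW_011645633.1 (bases 2346867 to 2347748, minus strand). The third, AOL_s00215g1, had 30120.5, 30472 and 29474 FPKM and lies near the end of scaffold NW_011645772.1 (bases 1351 to 1946, minus strand). Both were likewise without a match. Among the 10 most abundant loci 7 had no match, among the top 30 there were 12 (40%) and among the top 1000 there were 175 (17.5%), against 38.4% of all loci. The unmatched loci of the top 30 alone held 19.8% of the summed mean FPKM. The median span was 605 bp in the top 30 and 1002 bp in the top 1000, against 1362 bp over all loci, and no locus of the top 30 overlapped another locus of the table.

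Secreted and surface proteins led the matched loci of the top 30. AOL_s00083g444, a cerato-platanin of the family that holds the Aspergillus allergen Asp f 15, small cysteine-containing proteins of the fungal cell surface, had 26578, 27603 and 11984.5 FPKM. A secreted protein of unknown function, AOL_s00083g104, had 14065, 15251 and 6258 FPKM. In both, library 3 was the lowest and lay below 50% of either other library. The lectin AOL_s00080g288, of the Agaricus bisporus type, which binds sugars, went the other way with 4761, 8829 and 15724 FPKM. A second lectin with a ricin-type fold, AOL_s00043g240, was even across the libraries with 9099, 8554 and 10402 FPKM, and so was AOL_s00215g434, a GPI-anchored protein with a cysteine-rich CFEM domain, with 8444, 9150.1 and 7972 FPKM.

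Membrane and energy functions followed. Plasma membrane proteolipid 3 (AOL_s00173g93), a small hydrophobic membrane protein, had 9957, 12937 and 2484 FPKM. The homolog of respiratory supercomplex factor 2 (AOL_s00169g33), which in yeast helps to assemble respiratory complexes, had 8581, 10716.5 and 3510.0 FPKM. The plasma membrane proton pump, AOL_s00007g539, had 4601, 6040 and 1101 FPKM. All 3 were lowest in library 3. The ATPase-stabilizing factor AOL_s00188g77, whose yeast counterpart acts on the mitochondrial ATP synthase, was the most uneven of these with 6696, 6067 and 581.6 FPKM.

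The Woronin body major protein, AOL_s00112g56, which forms the crystalline core of these septal plugs, had 9872, 7986 and 4492 FPKM. It ranked 15th among all loci by mean FPKM. Thioredoxin (AOL_s00097g110), a small reducing protein, had 3041, 6934 and 6243 FPKM, and histone H3 (AOL_s00117g2) had 5309, 4021 and 4934 FPKM. Polyubiquitin (AOL_s00078g37) had 3449, 3647 and 5137 FPKM. ATX1 (AOL_s00110g88), a copper chaperone of the cytosol, rested on 1 library, with 1068, 2262 and 11609 FPKM. Of the top 30, 15 differed at least 2-fold between their highest and lowest library and 6 at least 4-fold, on the log2(FPKM + 1) scale. Among all 7621 loci with a mean of at least 5 FPKM, 3073 differed 2-fold and 725 (9.51%) 4-fold. Of the 168 loci at 1000 FPKM or more, 17.3% differed 4-fold. Within the top 30 as deposited, library 3 was the highest of the 3 in 12 loci and the lowest in 13. Ranked on libraries 1 and 2 alone, 26 of the 30 remained among the first 30 and 7 of the first 10 among the first 10.

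**Figure D1:**
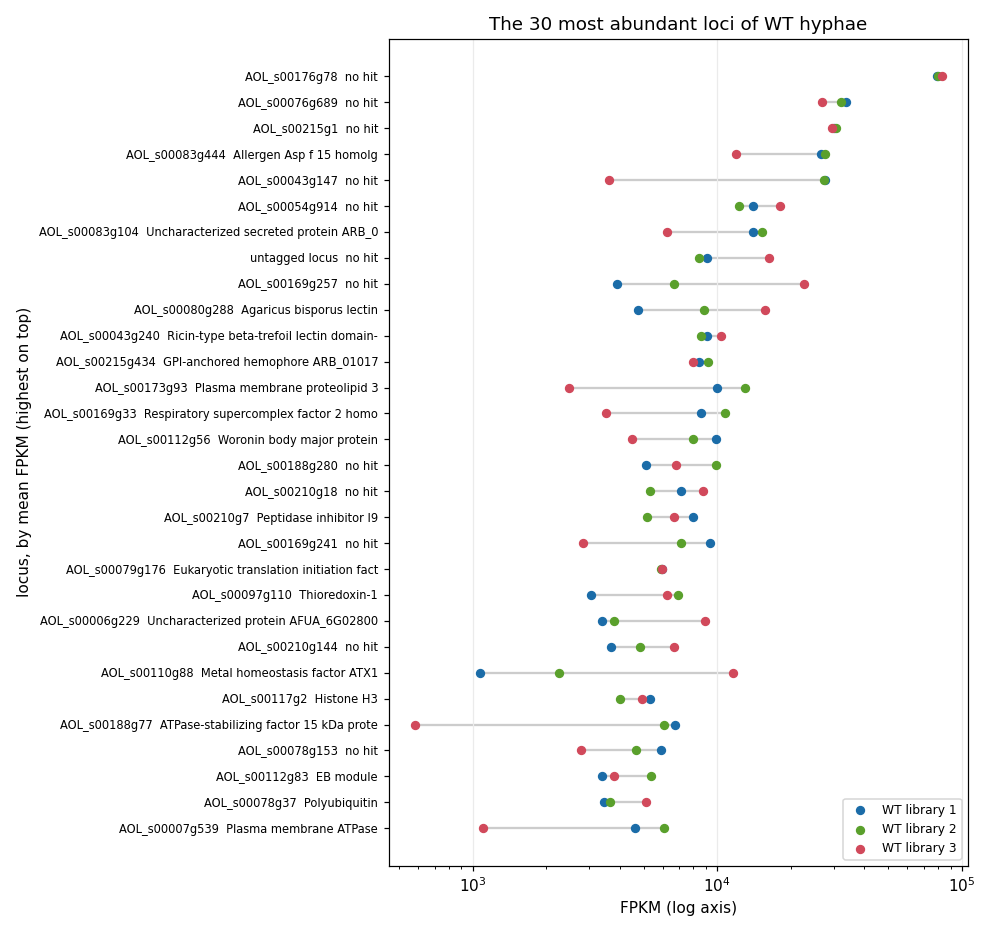
FPKM (log axis) of the 30 loci with the highest mean in WT hyphae, with 1 point per library and a grey line from the lowest to the highest library; loci are labelled with their Swiss-Prot or Pfam name, or as having no hit. AOL_s00176g78 stands alone at about 80568 FPKM with its libraries close together, while AOL_s00110g88 and AOL_s00188g77 spread widest among those labelled with a function.

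To ask which functions dominate, the loci were sorted into 33 lists by Swiss-Prot and Pfam names, each locus into 1 list at most. The lists took in 2909 loci (22.5% of all) and 34.9%, 34.2% and 36.8% of the summed FPKM in libraries 1, 2 and 3. A further 30.5%, 31.0% and 30.1% lay in 3253 tagged loci without a Swiss-Prot or Pfam match. The 5034 matched loci outside the lists held most of what remained (32.1% ± 1.44, SD, n = 3). Untagged loci without a match, 1705 in number, held 1.79%, 1.80% and 2.61%. Of their FPKM, 47.0% was a single locus of 2041 bp on scaffold NW_011645635.1 (bases 2002544 to 2004584, minus strand), eighth of all loci, which had 9063, 8430 and 16255 FPKM.

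Cytosolic ribosomal proteins were the largest of the named lists by the mean of the 3 libraries. These 80 loci, 0.62% of the table, held 6.13%, 5.30% and 6.96% of the summed FPKM. Their median was 734 FPKM, and 79 of the 80 had a mean of 100 FPKM or more. The acidic stalk proteins, which recruit elongation factors to the ribosome, were at the top, with 3092, 2783 and 3913 FPKM for P2 (AOL_s00078g257) and 2825, 2744 and 2900.4 FPKM for P1 (AOL_s00054g14). Small-subunit protein S25 (AOL_s00097g596) followed with 2403, 2078 and 3021 FPKM. The remaining locus, AOL_s00215g271, which carries only an acidic ribosomal protein domain, was listed at 0 in all 3 libraries. Translation factors held 1.56%, 1.46% and 1.54%. Initiation factor eIF-1 (AOL_s00079g176), which helps to select the start codon, had 5944, 5903 and 5950 FPKM and elongation factor 1-alpha (AOL_s00169g48), which brings aminoacyl-tRNA to the ribosome, had 3912, 3436 and 3962 FPKM. By contrast the 65 mitochondrial ribosomal proteins had a median of 72.9 FPKM and held 0.52%, 0.42% and 0.51%, and the 42 loci of aminoacyl-tRNA synthesis had a median of 20.5 FPKM.

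Surface and small secreted proteins came next, with 132 loci and 5.45%, 5.95% and 5.14% of the summed FPKM. This list was dominated by few members. The cerato-platanin AOL_s00083g444 made up 34.7% of it, while the median member had 3.78 FPKM and 21 members reached a mean of 100. The secreted protein AOL_s00083g104 was not on this list and alone held 1.03% of the summed mean FPKM. The order of surface and ribosomal proteins therefore depends on where that locus is placed.

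Oxidative phosphorylation and ADP/ATP exchange, 76 loci that make up the respiratory chain, the ATP synthase and the carriers of the adenine nucleotides, held 4.25%, 4.25% and 3.95%. In this list 62 members had a mean of 100 FPKM or more, the median was 285 FPKM and no member had a mean under 1. Behind the supercomplex factor came cytochrome c (AOL_s00081g186), the mobile electron carrier, with 4459, 4750.5 and 1142 FPKM, and an ADP/ATP translocase (AOL_s00006g249), which exchanges ADP for ATP across the inner mitochondrial membrane, with 3244.5, 3716 and 1686 FPKM. These 3 leading members were lowest in library 3, although the median member of the list was not. The nuclear list stands against 15 loci whose best match is a protein or an intron-encoded enzyme of mitochondrial DNA, which together held 0.01% in each library. Their highest, an untagged locus matched to a cytochrome b maturase, had 47.8, 40.5 and 64.7 FPKM. How the libraries were selected for messenger RNA is not given in the labels.

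Central carbon metabolism was present at lower shares. Glycolysis and gluconeogenesis (24 loci) held 0.82%, 0.76% and 0.76%, led by glyceraldehyde-3-phosphate dehydrogenase (AOL_s00169g10) with 3799, 2945 and 3465 FPKM. The gluconeogenic enzyme phosphoenolpyruvate carboxykinase (AOL_s00004g362) was second with 2195, 2275 and 1441 FPKM, ahead of phosphoglycerate kinase (AOL_s00006g198) with 643.2, 628.9 and 579.3 FPKM. The 28 loci of the tricarboxylic acid and glyoxylate cycles held 0.52%, 0.51% and 0.49%, with mitochondrial malate dehydrogenase (AOL_s00210g140) at 827.5, 1051 and 791.6 FPKM.

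Enzymes that break down proteins and polysaccharides formed large lists with few abundant members. Peptidases and their inhibitors (209 loci) held 1.83%, 1.51% and 2.41%, but the leading 3 members were inhibitors or carried an inhibitor domain and not proteases. The I9 inhibitor domain locus AOL_s00210g7 had 7942, 5175 and 6641 FPKM, the I66 inhibitor locus AOL_s00210g28 had 2239, 2079 and 3843 FPKM, and the serine protease inhibitor AOL_s00215g748 had 534.9, 1295 and 5702 FPKM. The median member had 15.7 FPKM. Glycosyl hydrolases (237 loci) held 1.46%, 1.57% and 1.27%, and their leading members belong to families that act on the fungal cell wall. They were the glycosidase crf1 (AOL_s00004g376) with 1936, 3043 and 2429 FPKM, the beta-glucosidase btgE (AOL_s00078g60) with 2614, 2479 and 1782 FPKM, and a glucan 1,3-beta-glucosidase (AOL_s00170g18) with 2699.6, 2866 and 1276 FPKM. The median member of this list had only 1.51 FPKM.

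Antioxidant enzymes held 1.22%, 1.83% and 1.61%. After thioredoxin the second member was a flavohemoprotein (AOL_s00043g392), an enzyme that detoxifies nitric oxide, with 3795, 5423 and 541.9 FPKM, and the third a manganese superoxide dismutase (AOL_s00170g93) with 976.7, 1278 and 2746 FPKM. Metal handling was the list whose share differed most between libraries relative to its size. The 42 loci for copper, iron and zinc held 0.62%, 0.72% and 1.87% of the summed FPKM. Besides ATX1, its leading members were the copper transporters CTR3 (AOL_s00006g231) with 2841, 2555 and 4419 FPKM and CTR1 (AOL_s00112g103) with 1093, 1163 and 2849 FPKM. All 3 were highest in library 3. Phosphate acquisition (15 loci) held 0.12%, 0.19% and 0.35%, led by a phosphate-repressible phosphate permease (AOL_s00169g251) with 808.2, 1458 and 2898 FPKM.

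Regulators ranged widely. The 286 transcription factors had a median of 18.2 FPKM, against 9.80 over all loci, and held 1.39%, 1.54% and 1.48%. Of their FPKM, 22.8% lay in a single basic leucine zipper locus, AOL_s00043g161, with 3785, 3970 and 3849 FPKM. The 140 protein kinases had a median of 16.1 FPKM. The 276 F-box proteins, adaptors that select proteins for ubiquitination, had a median of 3.42 FPKM, and the 236 HET, ankyrin, NACHT and phosphorylase-like loci, a class tied to non-self recognition in other fungi, had a median of 1.76 FPKM and held 0.12%, 0.13% and 0.18%. Secondary metabolism was low except for a few loci. The 18 loci listed under polyketide, peptide and terpene synthases, which include a decarboxylase, had a median of 1.46 FPKM. Of their FPKM, 44.2% lay in the polyketide synthase AOL_s00193g22 with 180.9, 231.7 and 101.2 FPKM. Next in that list came a nonribosomal peptide synthetase (AOL_s00215g415) with 66.6, 112.7 and 62.3 FPKM and the 6-methylsalicylic acid decarboxylase AOL_s00215g281 with 91.5, 48.1 and 50.5 FPKM. Beside the decarboxylase on the scaffold, the cytochrome P450 loci AOL_s00215g280 and AOL_s00215g282 came next among the 36 P450 loci after sterol 14-alpha demethylase, with 140.1, 82.1 and 72.8 FPKM and 92.1, 74.0 and 117.4 FPKM.

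**Figure D2:**
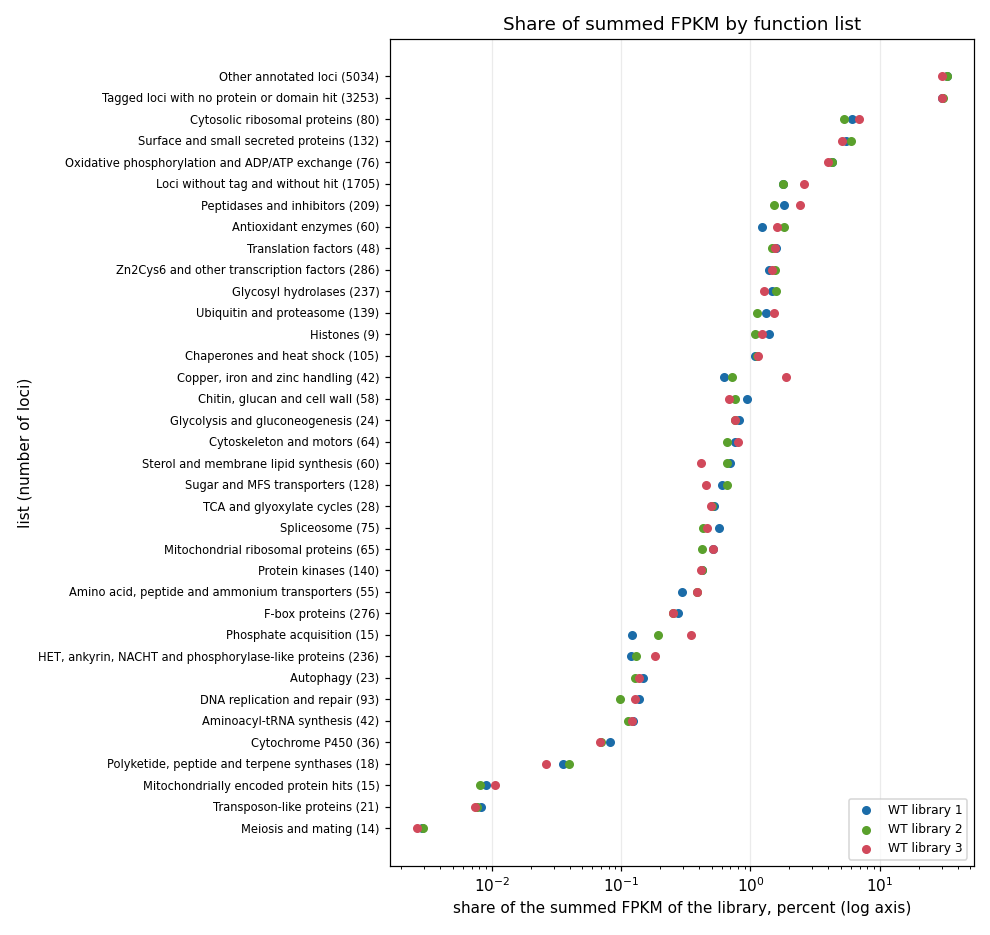
Share of the summed FPKM of each library (percent, log axis) held by each function list, with the number of loci in parentheses and 1 point per WT library. Cytosolic ribosomal proteins (6.13%, 5.30% and 6.96%), surface and small secreted proteins and oxidative phosphorylation lead the named functions, and the points of copper, iron and zinc handling and of phosphate acquisition spread widest.

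FPKM weights short loci more than the fragments themselves do. When the share was taken over FPKM times span, a measure of fragments, cytosolic ribosomal proteins held 4.60%, surface and small secreted proteins 4.54% and oxidative phosphorylation 3.39%, in the same order by the mean. AOL_s00083g104, outside these lists, held 0.57% of the fragments, so that this order too depends on its placement. In library 2 surface and small secreted proteins held more than ribosomal proteins by either measure (4.58% and 3.92% of fragments). Tagged loci without a match fell from 30.5% to 20.8%. By this measure AOL_s00176g78 still came first with 4.76% of the fragments and AOL_s00076g689 second with 2.22%, while the Woronin body protein rose from rank 15 to rank 6 and the proton pump from rank 30 to rank 7. Of the 30 loci first by FPKM, 20 were also among the first 30 by fragments.

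Markers of growing hyphae were present in all libraries. Gamma-actin (AOL_s00215g555) had 926.7, 891.7 and 1026 FPKM, alpha-tubulin (AOL_s00215g247) had 736.3, 625.3 and 558.0 FPKM and beta-tubulin (AOL_s00076g640) had 582.7, 496.8 and 471.8 FPKM. All 7 chitin synthases, which make the chitin of the wall, had a mean of 10 FPKM or more, the highest being chitin synthase 6 (AOL_s00210g38) with 227.9, 252.8 and 141.9 FPKM. The beta-1,3-glucan synthase FKS1 (AOL_s00054g491) had 264.2, 323.9 and 88.9 FPKM, so that library 3 lay below 40% of either other library. The 6 septins, which form rings at septa and branch points, summed to 771.9, 539.4 and 360.1 FPKM, and the formin sepA (AOL_s00076g310), which nucleates actin cables at tips, had 28.7, 22.1 and 13.4 FPKM. Actin was highest in library 3, whereas the septin sum, FKS1, sepA and the Woronin body protein were lowest there.

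One hydrophobin was abundant. AOL_s00006g570 had 1725, 1909 and 1397 FPKM, and the other 2 hydrophobin loci had means of 1.24 FPKM (AOL_s00007g172) and 0.11 FPKM (AOL_s00075g89). These proteins coat aerial hyphae and spores.

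Regulators of conidiation were measured at low to moderate levels. The 9 loci matched to them summed to 170.5, 149.8 and 291.8 FPKM. The velvet protein VelB (AOL_s00054g811) was the highest with 66.7, 62.1 and 88.2 FPKM, the VosA-type velvet protein (AOL_s00054g700) had 15.4, 16.1 and 46.7 FPKM, and FlbA (AOL_s00215g516), an inhibitor of G-protein signalling that permits sporulation in Aspergillus, had 14.9, 21.01 and 64.0 FPKM. AbaA (AOL_s00080g63), which acts in developing conidiophores of Aspergillus, had 3.96, 3.79 and 3.47 FPKM and WetA (AOL_s00173g221), which acts in the maturing spore, had 1.41, 1.64 and 1.67 FPKM. StuA (AOL_s00083g25) had 21.3, 14.6 and 26.9 FPKM. The FluG matches had 13.7, 11.15 and 30.4 FPKM (AOL_s00083g274) and 4.22, 1.70 and 5.23 FPKM (AOL_s00043g361). VeA (AOL_s00169g18) was highest in library 1 with 29.0, 17.6 and 25.2 FPKM. AbaA and WetA were thus low and even in all 3 libraries, while VelB, FlbA, VosA, StuA and the FluG matches were highest in library 3. No locus was matched to BrlA or MedA by name.

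Loci of the families linked to traps were present at very unequal levels. Among 19 CFEM proteins, 10 had a mean of 10 FPKM or more and 2 had a mean under 1, and the sum was 14257, 14496 and 12350.4 FPKM. That sum came largely from AOL_s00215g434 and from AOL_s00076g241, with 3628, 3260.0 and 2703 FPKM. Of 34 Egh16-like proteins, a family first known from appressoria of plant pathogens, 1 reached a mean of 10 FPKM, 23 had a mean under 1 and 3 were listed at 0 throughout. The highest, AOL_s00185g3, had 18.9, 20.02 and 3.75 FPKM. In such a large family, fragments shared between near-identical members could be assigned to the wrong locus, and how the authors treated them is not given in the sources used here.

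Adhesin-like GLEYA proteins (4 loci) summed to 146.5, 193.9 and 624.4 FPKM, fucose-specific lectins (9 loci) to 144.2, 144.3 and 328.6 FPKM, and cuticle-degrading serine proteases (4 loci), named after enzymes that digest nematode or insect cuticle, to 164.5, 189.8 and 287.4 FPKM. The leading members moved in different directions. The GLEYA protein AOL_s00083g117 had 67.3, 77.0 and 447.3 FPKM and the protease AOL_s00076g4 had 40.2, 90.5 and 260.6 FPKM, both highest in library 3, whereas the protease AOL_s00215g702 had 110.4, 70.5 and 12.9 FPKM. WSC proteins (14 loci), most of them surface proteins with a sugar-binding domain, summed to 433.5, 400.0 and 290.8 FPKM. The sexual stage was near the lower end. Both pheromone receptors had means under 1 FPKM (0.48 for AOL_s00075g223 and 0.22 for AOL_s00079g307), the Spo11-type recombination protein AOL_s00215g108 had 0.23, 0.21 and 1.62 FPKM, and no locus was matched to a mating-type gene or to Dmc1. The meiotic cohesin rec8 match (AOL_s00112g104) had 20.8, 22.2 and 21.2 FPKM. In a mycelium, fewer cells of a stage and less RNA per cell cannot be told apart.

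**Figure D3:**
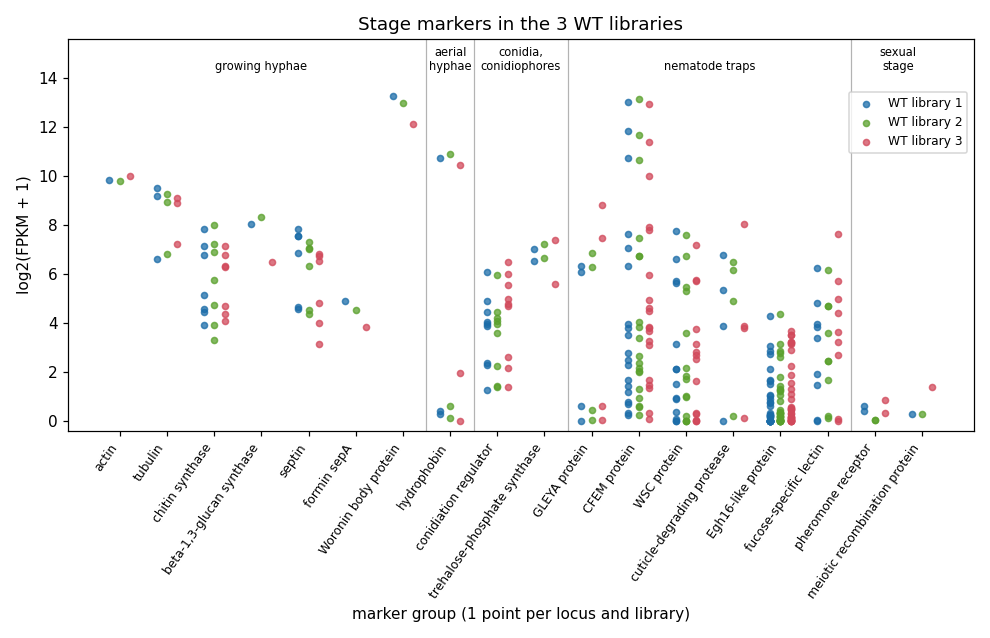
log2(FPKM + 1) of each marker locus in each WT library, grouped by stage, with 1 point per locus and library. Growing-hyphae markers lie well above 0 in all 3 libraries, 1 hydrophobin lies far above the other 2, Egh16-like proteins crowd near 0 and the sexual-stage markers stay low.

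Silence was rare among the loci listed. In all, 272 of 12901 loci (2.11%) were listed at FPKM 0 in all 3 libraries, and 538 (4.17%) stayed under 0.1 in each. The 12901 include 1757 untagged loci. The RefSeq annotation holds 11479 genes, of which only the 11144 tagged loci were listed. Genes not listed have no value here, and whether they were silent was not tested. A mean under 1 FPKM was found for 2878 loci (22.3%). The 272 consisted of 149 tagged loci without a match, 73 tagged loci with one and 50 untagged loci. They included 1.99% of all tagged loci, 4.58% of the tagged loci without a match and 0.93% of those with one. Silent tagged loci had a median span of 1046.5 bp against 1414 bp over all tagged loci, and at a given FPKM a shorter locus receives fewer fragments. Library 3 detected more of the weak loci: 347 loci were above 0 there and at 0 in both others, against 100 for library 1 and 111 for library 2. At the estimated depth, 1 fragment on a locus of median span amounts to 0.038 to 0.043 FPKM, so that a listed 0 limits the level and does not show its absence.

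Core functions had almost no silent members. No member of the lists for oxidative phosphorylation (76), spliceosome (75), mitochondrial ribosomal proteins (65), translation factors (48), the tricarboxylic acid and glyoxylate cycles (28) or autophagy (23) had a mean under 1 FPKM. Autophagy was led by ATG8 (AOL_s00007g534), the ubiquitin-like protein of the autophagosome membrane, with 932.9, 833.8 and 995.0 FPKM.

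Among surface and small secreted proteins 19 of 132 (14.4%) stayed under 0.1 FPKM and 48 had a mean under 1, although 21 others of the same list exceeded 100. Glycosyl hydrolases had 102 of 237 (43.0%) with a mean under 1, the HET, ankyrin, NACHT and phosphorylase-like list 88 of 236 (37.3%, although none was at 0 throughout and 2.54% stayed under 0.1), F-box proteins 73 of 276 (26.4%) and peptidases and inhibitors 52 of 209 (24.9%). Against the 22.3% of all loci, the peptidases and the F-box proteins were close to the background. Meiosis and mating had 9 of 14 and transposon-like proteins 11 of 21.

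The silent annotated loci with the longest span in their lists, at 0 in all 3 libraries, included several secondary-metabolism and secretion genes. They were the sesterterpene synthase match AOL_s00080g121 (3126 bp), the decarboxylase match AOL_s00006g429 (4245 bp), the jacalin-like lectin AOL_s00169g128 (3322 bp) and a P450 (AOL_s00004g577, 1959 bp). Secreted hydrolases were represented by the subtilisin-like protease AOL_s00054g589 (2229 bp), the serine carboxypeptidase AOL_s00210g251 (2167 bp), a pectate lyase (AOL_s00007g209), which cuts plant pectin, and a family 16 glycosyl hydrolase (AOL_s00043g276). An acid phosphatase (AOL_s00079g462), an Hsp70 domain protein (AOL_s00076g442) and 2 neighbouring ubiquitin carboxyl-terminal hydrolases (AOL_s00004g506 and AOL_s00004g507) were also at 0.

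Some silent loci were neighbours. Among the tagged loci in scaffold order, 10 runs of 3 or more consecutive loci stayed under 0.1 FPKM, and together they held 34 of the 472 tagged loci (4.24% of all tagged loci) at that level. The longest run had 6 members, AOL_s00076g512 to AOL_s00076g517, none with a match. A run of 3 (AOL_s00079g465 to AOL_s00079g467) held a WSC protein, a lactonase and an oxalate decarboxylase match, and another of 4 held the jacalin-like lectin named above with an F-box locus. The runs were named after their values were seen.

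**Figure D4:**
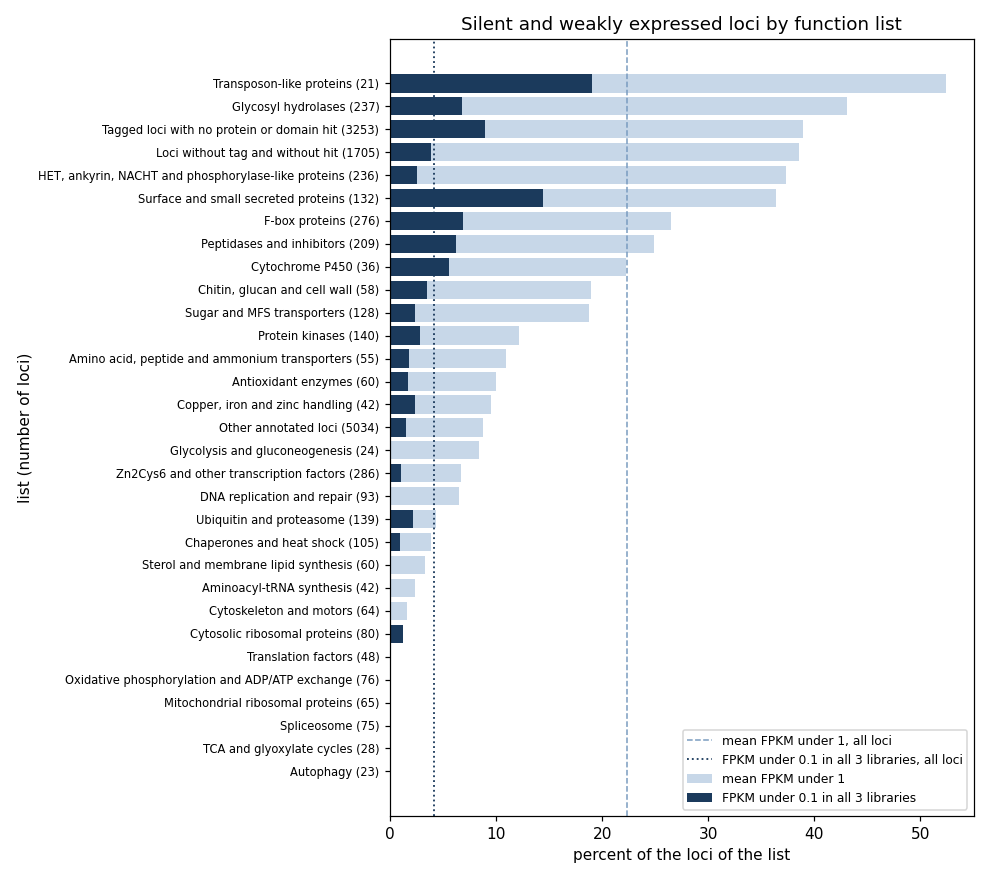
Percent of the loci of each list of 20 or more loci with a mean FPKM under 1 (light bars) and under 0.1 FPKM in all 3 WT libraries (dark bars), with the same shares over all loci (22.3%, dashed; 4.17%, dotted). Transposon-like proteins, glycosyl hydrolases, loci without a match, the HET, ankyrin, NACHT and phosphorylase-like list, surface proteins, F-box proteins and peptidases exceed the dashed line, and core functions lie near 0.

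Variation between the 3 libraries came almost entirely from library 3. Among the 7621 loci with a mean of at least 5 FPKM, 725 (9.51%) differed at least 4-fold on the log2(FPKM + 1) scale between their highest and lowest library, 3073 at least 2-fold and 184 at least 8-fold. Taken in pairs, 14 of the 7621 loci were 4-fold apart between libraries 1 and 2, against 589 between libraries 1 and 3 and 518 between libraries 2 and 3. In 720 of the 725 library 3 was the highest or the lowest. With libraries 1 and 2 only, and the minimum of 5 FPKM taken over their mean, 12 loci varied 4-fold. The share of varying loci was 10.4% at a mean of 5 to 20 FPKM, 7.89% at 20 to 100, 10.8% at 100 to 1000 and 17.3% (29 of 168) at 1000 or more, so that it was not confined to weak loci. The labels name no batch that sets library 3 apart. The estimated depth was 19100000, 17900000 and 17100000 fragments in libraries 1, 2 and 3. Whether batch or depth had a part in the variation was not tested.

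**Figure D5:**
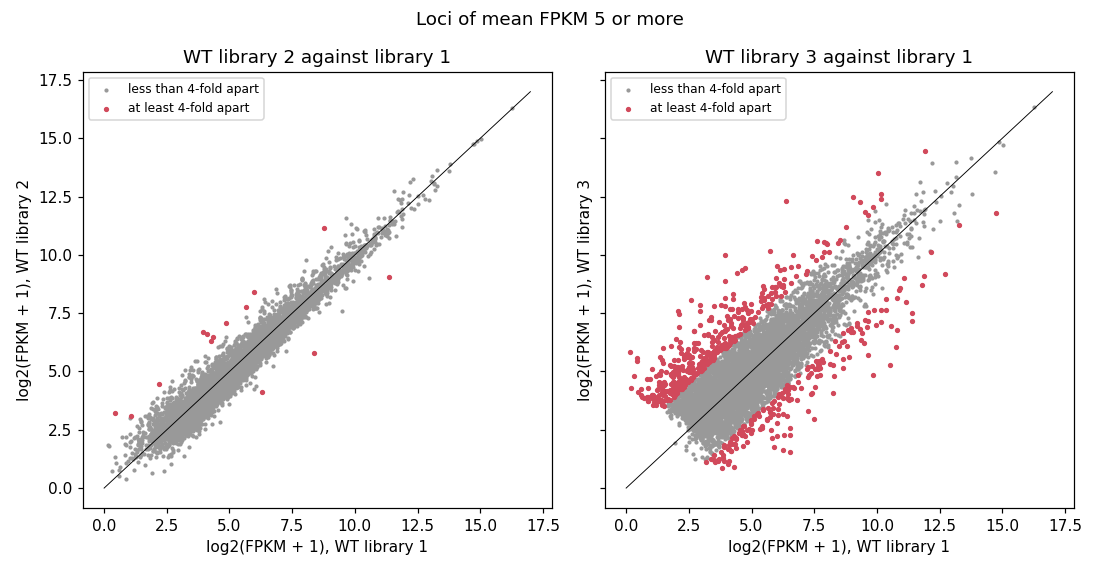
log2(FPKM + 1) of the 7621 loci with a mean of at least 5 FPKM, library 2 (left) and library 3 (right) against library 1, with loci at least 4-fold apart in red and the line of equality in black. Red points number 14 on the left and 589 on the right.

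The direction of library 3 depended on the scaling. As deposited, it lay at least 2-fold above both others in 1156 loci (15.2%) and at least 2-fold below both in 696 (9.13%), and the median difference to the mean of libraries 1 and 2 was 0.14 on the log2 scale. After median-ratio scaling the counts were 675 above and 1207 below, and after quantile scaling 889 and 996. That is a share of 62.4%, 35.9% and 47.2% above. The minimum mean of 5 FPKM took in library 3, so a locus weak in libraries 1 and 2 could pass through a high library 3. How many of the loci above passed only in this way was not counted, and the split does not show a direction of library 3. The groups described next are therefore read against all loci under the same scaling and the same minimum mean.

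Transporter and secreted-protein lists had the largest shares of varying loci among the named lists with 20 or more loci tested. Of the amino acid, peptide and ammonium transporters 10 of 41 varied 4-fold (24.4%), of the sugar and major facilitator transporters 17 of 84 (20.2%), of the glycosyl hydrolases 17 of 90 (18.9%), of the surface and small secreted proteins 11 of 62 (17.7%) and of the peptidases and inhibitors 23 of 131 (17.6%), against 9.51% of all loci tested. Tagged loci without a match varied in 213 of 1341 (15.9%). By contrast none of the 79 cytosolic ribosomal proteins tested, none of the 65 mitochondrial ones, none of 75 spliceosome loci and none of 9 histones varied 4-fold, and 1 of 127 in the ubiquitin and proteasome list did. The largest range of any ribosomal protein was 1.07 on the log2 scale. These counts describe the libraries and carry no test.

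Several lists leaned one way in library 3. Peptidases and inhibitors lay 2-fold above both other libraries in 38 of 131 (29.0%) and below in 9, and after median-ratio scaling above in 25 and below in 15, where 8.92% and 15.9% of all loci were above and below. Copper, iron and zinc loci were above in 9 of 36 and below in 2, and 6 and 3 after scaling, with a median difference of 0.75 as deposited and 0.40 after scaling, against 0.14 and -0.20 over all loci tested. Antioxidant enzymes had a median difference of 0.52 and 0.18, and peptidases and inhibitors of 0.34 and -0.01. Such medians were not particular to these lists. Phosphate acquisition had 0.74 and 0.39, aminoacyl-tRNA synthesis 0.67 and 0.31, and oxidative phosphorylation 0.51 and 0.16. The HET, ankyrin, NACHT and phosphorylase-like list had 0.60 and 0.21. Lower in library 3 were sterol and membrane lipid synthesis, with 11 of 55 (20%) 2-fold below and 1 above as deposited, 15 and 0 after scaling, and a median of -0.26 and -0.61. The chitin, glucan and cell wall list had a median of -0.34 and -0.69. Beside these stand the stage markers, as deposited. The sums for conidiation regulators, GLEYA proteins, cuticle-degrading proteases, fucose-specific lectins and Egh16-like proteins (54.03, 58.4 and 87.1 FPKM) were highest in library 3, whereas the sums for septins, CFEM proteins, WSC proteins and the 2 trehalose-phosphate synthases (222.6, 249.3 and 213.2 FPKM), which make a sugar stored in spores, were lowest there. Their part in the variation was not tested.

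Of the 20 most variable loci as deposited, library 3 was the highest in 15 and the lowest in 5, and 6 had no match. Among all 725 varying loci library 3 was the highest in 480 and the lowest in 240. Of the 725, 36.6% had no match, against 21.3% of the 7621 loci tested. After median-ratio scaling library 3 was the highest in 302 and the lowest in 422 of 729. The widest range belonged to the unmatched AOL_s00054g906 with 14.4, 24.7 and 1015 FPKM, 6.04 on the log2 scale. A mannose-binding lectin, AOL_s00006g511, had 82.8, 271.8 and 5066 FPKM, the next widest range. Peptidases and inhibitors were 131 of the 7621 loci tested and 23 of the 725 varying loci. Peptidases made up 4 of the 20 most variable loci. They were a metallocarboxypeptidase (AOL_s00210g234) with 3.20, 10.4 and 193.7 FPKM, a leucine aminopeptidase (AOL_s00004g174) with 5.02, 13.8 and 263.3 FPKM, the subtilisin-like protease AOL_s00054g992 with 3.33, 3.23 and 174.5 FPKM and the S41 family protein AOL_s00080g319 with 6.74, 9.44 and 230.7 FPKM. Low values in the other libraries follow from the choice by range, and AOL_s00054g992 passed the minimum mean only through library 3.

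Other loci of the 20 were of mixed function. The quinate permease match AOL_s00080g195, a transporter of a plant acid, had 25.5, 13.2 and 690.0 FPKM. A second manganese superoxide dismutase (AOL_s00007g292) had 23.3, 27.4 and 653.0 FPKM, and CRZ1 (AOL_s00097g28), a transcription factor of calcium signalling, had 20.6, 41.9 and 593.0 FPKM. Lowest in library 3 were the multidrug transporter match AOL_s00081g292 with 927.7, 661.7 and 27.5 FPKM, the DUF3759 protein AOL_s00054g211 with 1468, 985.1 and 37.9 FPKM, and a histidine kinase (AOL_s00117g36), matched to a peroxide sensor of fission yeast, with 75.3, 86.1 and 2.14 FPKM. In 15 of the 20 loci library 2 lay between libraries 1 and 3. Of all 725 varying loci, library 2 was the highest in 144 and the lowest in 166.

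A few neighbouring loci differed alike. As a description chosen after the values were seen, the tagged loci held 1 run of 3 or more that lay at least 4-fold below both other libraries in library 3 and 2 runs that lay above. Among all 11144 tagged loci 130 lay below in this way and 227 above, each with a mean of at least 5 FPKM. These runs took in 5 of the 130 and 8 of the 227. The counts are for the values as deposited, and runs were not counted under the other scalings. The run below had 5 members, AOL_s00054g955 to AOL_s00054g959. It held a transporter (2675, 2812 and 182.4 FPKM), an L-lactate dehydrogenase (1765, 1655 and 110.2 FPKM), which interconverts pyruvate and lactate, 2 loci without a match and a helix-loop-helix DNA-binding protein (406.1, 383.5 and 77.4 FPKM). The next locus on the scaffold, AOL_s00054g960, was by contrast among the most even of all with 155.5, 161.1 and 161.1 FPKM. One run above, AOL_s00097g549 to AOL_s00097g552, held 4-hydroxyphenylpyruvate dioxygenase (70.0, 48.9 and 662.5 FPKM) and homogentisate 1,2-dioxygenase (54.7, 44.0 and 275.0 FPKM), consecutive enzymes of tyrosine breakdown. The other, AOL_s00215g238 to AOL_s00215g241, had 1 matched member, a Myb-like DNA-binding protein (1.60, 2.17 and 18.97 FPKM). All members of that run passed the minimum mean of 5 FPKM only through library 3, the library in which they were called high.

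At the other end, 10 loci of at least 100 FPKM were the most even. The closest was eIF-1, whose 3 libraries (5944, 5903 and 5950 FPKM) spanned 0.01 on the log2 scale. Dihydrolipoyl dehydrogenase (AOL_s00054g616), a subunit of pyruvate and 2-oxoglutarate dehydrogenases, had 316.2, 319.0 and 309.5 FPKM. The wall glycosidase crf2 (AOL_s00080g193) had 1638, 1608 and 1660.4 FPKM, the sterol isomerase erg2 (AOL_s00097g539) 239.4, 233.7 and 242.7 FPKM and phosphoglucomutase (AOL_s00004g302) 132.6, 138.0 and 135.8 FPKM. AOL_s00176g78 and AOL_s00215g1, both among the leading loci in abundance, belonged to these 10 as well, with the basic leucine zipper locus AOL_s00043g161.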

How the data were processed

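The authors deposited 1 table of FPKM values, fragments scaled to locus length and library size, rounded to 2 decimals in the deposited file. No header or label names the aligner, counting program, strandedness or transcript lengths. All 9 value columns of the table belong to samples of the series (0 do not), of which the 3 WT columns were used, and 0 pairs of the 3 WT libraries were identical. All 11144 tagged loci matched the RefSeq gene table of assembly AOL24927 1.0, which holds 11479 genes, with equal start and end. Functions are Swiss-Prot and Pfam names of the deposited table. KEGG ortholog names contradicted protein hits and were not used. With 1 group there was no comparison to test.

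Depth was estimated from the step of low FPKM values of loci under 700 bp, taking spans, introns included, as lengths. With the estimate, 69.0 to 70.3% of these values lay within 0.1 of a whole fragment. The depth estimate and the 4-fold rule were also run on simulated counts with random sampling only. Such counts hold no differences between cultures, and no result here rests on that run. A locus varied when its highest and lowest library differed 4-fold, as log2(FPKM + 1), at a mean FPKM of at least 5. Named loci are the 30 of highest mean, up to 3 leading and 2 longest silent loci per list, the 20 most and 10 least varying (the latter of mean FPKM 100 or more), and stage markers. Members and lists were chosen with earlier results of these data known. Alternatives were other thresholds, pseudocount, scalings, span weighting and leaving out each library. Python 3.11.15, pandas 2.3.3 and numpy 2.4.6 were used.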

Additional observations from a re-analysis of the deposited data

How the results depend on the processing

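Of the top 100 loci, 85 to 97 were shared when ranked by median, geometric mean, median-ratio scaled values or without 1 library, the lowest without library 3. Ranking by FPKM times span kept 20 of the top 30. Shares moved with the measure. Over fragments (FPKM times span) the function lists together held 36.9%, ribosomal proteins 4.60%, oxidative phosphorylation 3.39% and surface proteins 4.54%. Without the 10 most abundant loci they held 41.2%, 7.75%, 5.26% and 3.47%. Leaving out 1 library gave 34.5 to 35.8% for all lists, 5.72 to 6.54% for ribosomal proteins, 4.10 to 4.25% for oxidative phosphorylation and 5.29 to 5.70% for surface proteins. Of 272 silent loci the definition decided the number, with 538 under 0.1 FPKM in all libraries, 2878 with a mean under 1, and 372 to 619 when 1 library was left out (619 without library 3). Varying loci numbered 438 at a mean of at least 20 FPKM, 3073 at 2-fold and 184 at 8-fold, 726 and 729 under quantile and median-ratio scaling, and 12 to 619 when 1 library was left out. The 12 were found without library 3. The loci with library 3 above both others fell from 1156 to 675 after median-ratio scaling (889 after quantile scaling), and those below rose from 696 to 1207 (996), both scalings being chosen for this split after seeing the data. No paired analysis was possible because only 1 group was used. The depth limits what can be said of weak loci, and the shares of fragments rest on spans that include introns. The cause of these differences was not tested.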
